A study of Mus musculus with 40 samples.

Results

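The genes that write, copy and erase DNA methylation are 7 here: the methyltransferases Dnmt1, Dnmt3a and Dnmt3b, their cofactor Uhrf1, and the dioxygenases Tet1, Tet2 and Tet3. They were chosen by name and not by their values from the 20593 genes of the deposited table, with earlier results of these data known. All 7 were found, and all 7 passed the filter on low values (at least 10 in at least 5 libraries), as did 15377 genes in all. Their messages were measured by sequencing of polyadenylated RNA from livers of C57BL/6 mouse fetuses on gestational day 18.5. The dams had been fed 1 of 4 diets for 13 weeks before mating and during pregnancy, and the series describes the 45% fat diet as a mouse model of gestational diabetes. WDF had 45% of its calories from fat and 10 mg/kg folic acid, WD 45% and 2 mg/kg, CDF 10% and 10 mg/kg, and CD 10% and 2 mg/kg. Each diet gave a female and a male group of 5 fetal livers, 1 library each.

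Cytosines followed by guanine carry most of the methyl groups in mammalian DNA, and the marks must be copied each time the DNA is replicated. Uhrf1 recognises the half-methylated DNA left behind the replication fork and brings in Dnmt1, which methylates the new strand, whereas Dnmt3a and Dnmt3b place methyl groups on DNA that had none. The Tet enzymes oxidise methylcytosine, with 2-oxoglutarate as cosubstrate, and the oxidised base is then diluted by replication or cut out by base excision repair. The methyl donor of the methyltransferases is S-adenosylmethionine, whose resynthesis depends on the folate cycle. The fetal liver close to birth holds maturing hepatocytes beside dividing blood precursors. In such a mixture, fewer cells of a type and less RNA per cell cannot be told apart.

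The liver label was checked against markers, and 2 of the 40 libraries stood apart. Albumin message (Alb) was 5278 in CDF females replicate 5 and 7708 in CD females replicate 4, against 641907 to 1496610 in the other 38, and the lung surfactant gene Sftpc was 67014 and 101239 in these 2. They are left out of all comparisons below, so that the CDF and CD female groups have 4 libraries each, and their values are given at the end. Among the 38, the sum of normalized counts per library ran up to 27.8 M, with 20.4 M as the highest but for the 2 libraries named next. The highest totals and the lowest Alb values belonged to CDF females replicate 4 (27.8 M, Alb 658016, Sftpc 24797) and CD males replicate 4 (20.8 M, Alb 641907). Results are therefore also given without these last 2, with 36 libraries, where that changes a count or a value by much. Sftpc was above 1000 in 6 of the 38 libraries.

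The maintenance pair had the most message and Tet1 the least. Levels of different genes are compared as normalized counts per kilobase of merged exon, mean ± SD over the 38 libraries. Uhrf1 had 355 ± 56.1 and Dnmt1 190 ± 43.2 per kilobase. The de novo enzymes followed with 37.5 ± 9.22 for Dnmt3a and 29.1 ± 5.02 for Dnmt3b. Of the erasers, Tet3 had 28.4 ± 7.001, Tet2 9.62 ± 1.95 and Tet1 2.01 ± 0.888 per kilobase. Within single libraries the order was almost fixed. Uhrf1 stood above Dnmt1 in 36 of 38 libraries, Dnmt1 above Dnmt3a in 38 (median ratio 4.78), Dnmt3a above Dnmt3b in 37, and Tet3 above Tet2 (median ratio 3.01) and Tet2 above Tet1 (4.76) in all 38. Dnmt3b and Tet3 could not be ranked, since Dnmt3b was higher in 22 of 38 libraries by merged exons and in 4 of 38 when the longest coding transcript gave the length.

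As deposited, not divided by length, the levels in the 38 libraries and their loci in mm10 were as follows. Uhrf1 (chr17:56303321-56323486, plus strand) had a lowest, median and highest normalized count of 1004, 1486 and 1971. Dnmt1 (chr9:20907209-20959888, minus strand) had 868, 1393 and 2375. Dnmt3a (chr12:3806007-3914443, plus strand) had 301, 630 and 998. The highest Dnmt1 value was that of a CD male, and the next was 2023 in a WDF female. Dnmt3b (chr2:153649450-153687730, plus strand) had 95.9, 151 and 196. Tet1 (chr10:62804570-62908996, minus strand) had 9.24, 27.9 and 74.2. Tet2 (chr3:133463679-133545139, minus strand) had 101, 164 and 267. Tet3 (chr6:83362373-83459084, minus strand) had 147, 481 and 835. Relative to its mean, Tet1 varied most (SD 44.1% of the mean) and Uhrf1 least (15.8%), with 17.3 to 24.6% for the other 5.

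**Figure D1:**
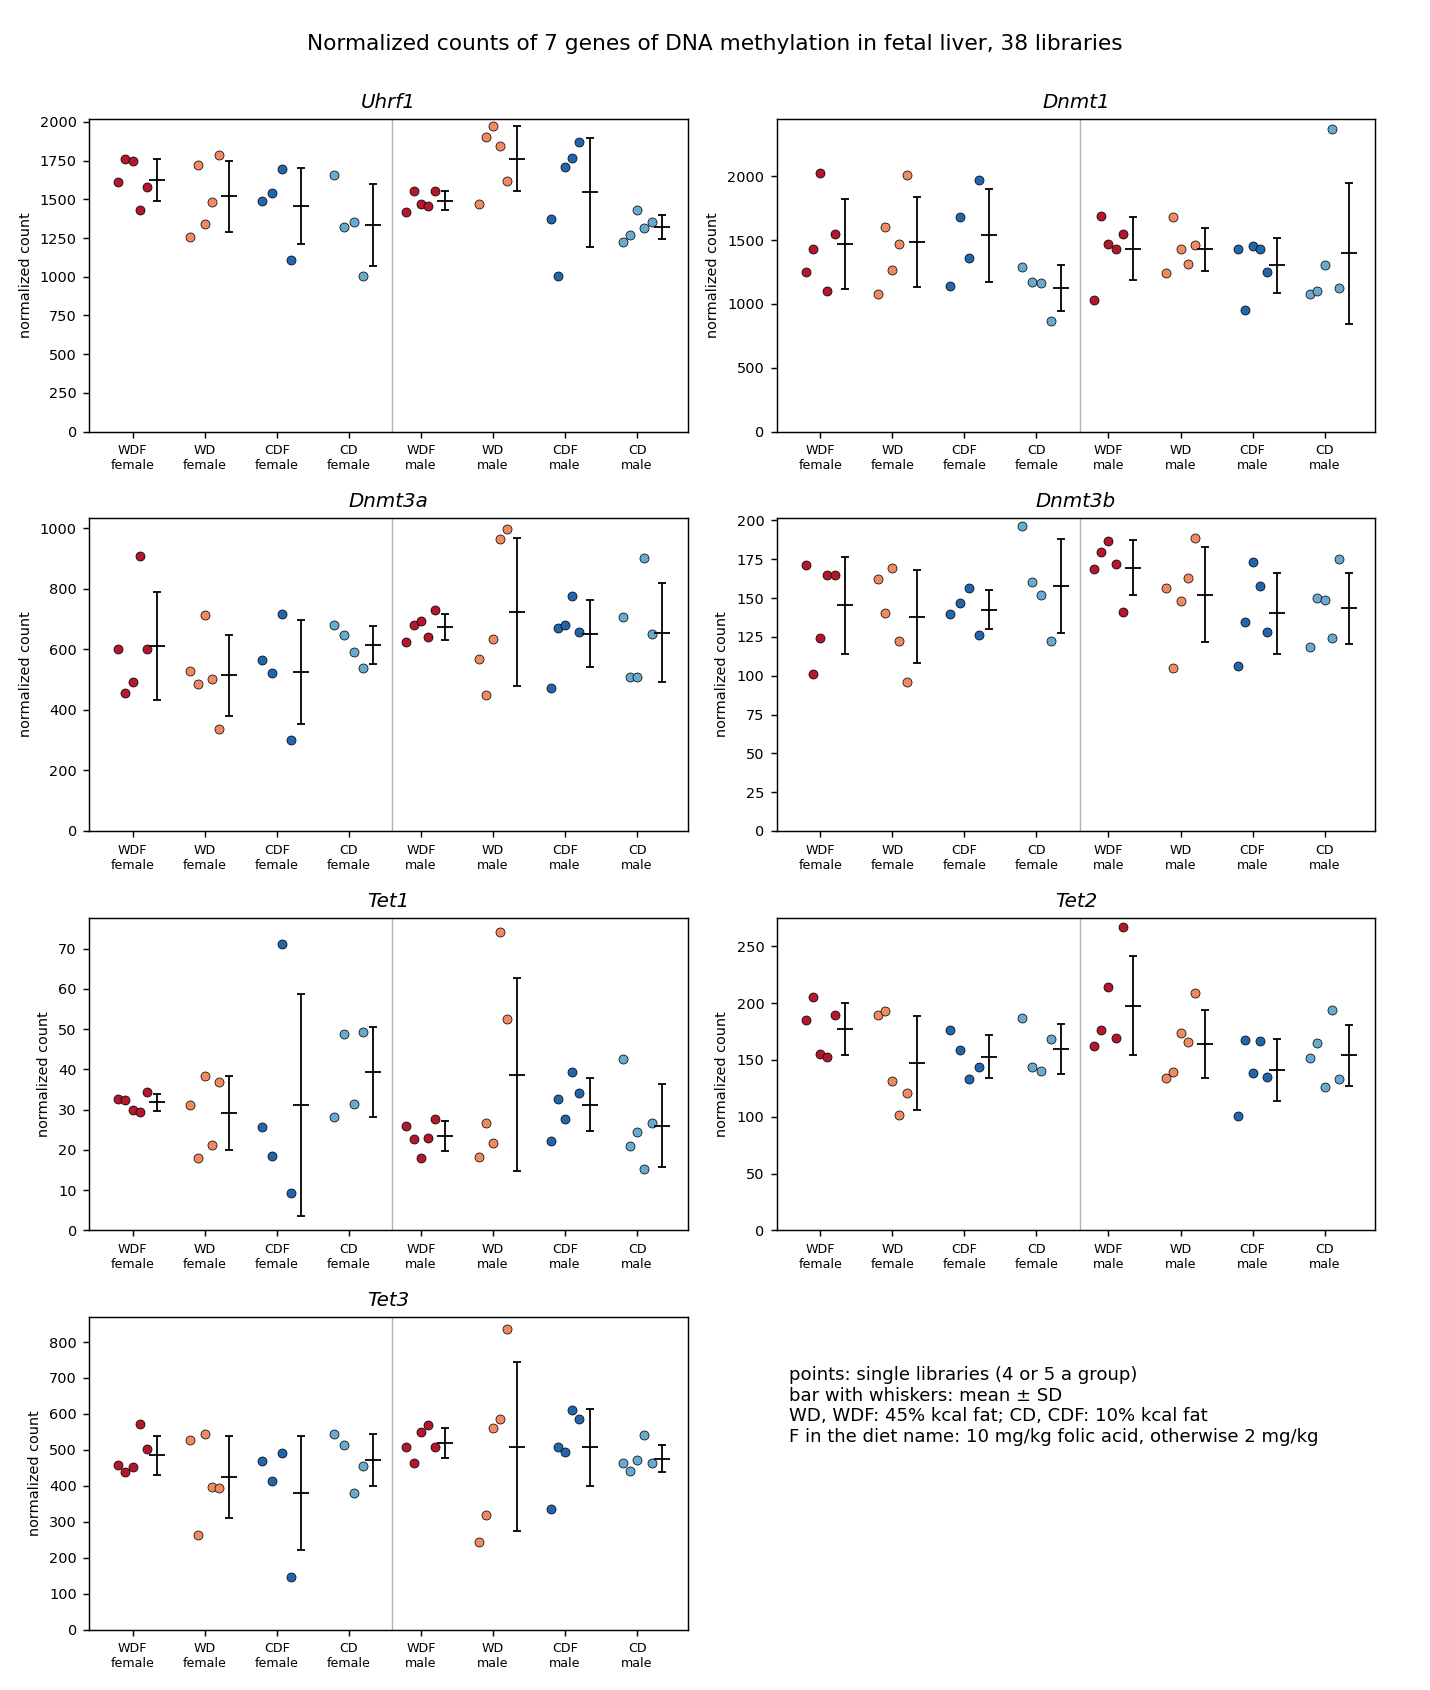
Normalized counts (vertical axes, starting at 0) of the 7 genes in the 38 libraries, by diet and sex; points are single libraries, and bars with whiskers are group means ± SD (n = 4 or 5). Most groups overlap for every gene, 1 CD male library stands at 2375 for Dnmt1, and all 5 WD males lie above all 5 CD males for Uhrf1.

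In no gene did neighbouring groups separate. When the 8 groups were ordered by their mean, each of the 7 gaps between neighbours was smaller than the larger of their SDs, for all 7 genes. Between the ends of the order the means differed 1.23-fold (Dnmt3b) to 1.68-fold (Tet1). For Uhrf1 the ends were WD males (1763 ± 209) and CD males (1321 ± 78.1), and for Dnmt1 they were CDF females (1538 ± 365) and CD females (1125 ± 181). Dnmt3a was highest in WD males (723 ± 246) and lowest in WD females (513 ± 134), and Dnmt3b was highest in WDF males (170 ± 17.5) and lowest in WD females (138 ± 29.9). Neither the maintenance pair nor the de novo pair shared an order of groups. With gaps smaller than the SDs, these orders are not resolved. Tet1 ran between CD females (39.4 ± 11.1) and WDF males (23.4 ± 3.67), Tet2 between WDF males (198 ± 43.5) and CDF males (142 ± 27.3), and Tet3 between WDF males (520 ± 41.4) and CDF females (381 ± 159). The ends did not overlap for Uhrf1 and Tet1, but they were picked as the highest and lowest of 8, so this is a description and not a test.

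The first dietary question was what the 45% fat diet did to these genes. Uhrf1 was the gene with the clearest contrast, in males at 2 mg/kg folic acid. Its 5 normalized counts were 1472, 1905, 1971, 1847 and 1619 in WD males, against 1227, 1272, 1431, 1317 and 1356 in CD males. The lowest WD male lay above the highest CD male, so the 2 groups did not overlap. The log2 difference was 0.41 ± 0.14 (SE; 95% interval 0.12 to 0.70, 1.33-fold), with an unadjusted p of 0.00657 by limma. After Benjamini-Hochberg adjustment over the 15377 genes it did not pass (adjusted p = 0.673). In that comparison 0% of all genes passed the adjusted threshold of 0.05 and 6.65% were under an unadjusted 0.05, beside 0 and 1 of the 7 genes. With libraries weighted by how far they lay from their group, Uhrf1 passed (log2 difference 0.50, adjusted p = 0.0332), as 1 of 145 genes. Uhrf1 was the only 1 of the 7 genes without overlap in any of the 11 comparisons of groups. The share of all genes without overlap was not counted, so this is a description and does not set Uhrf1 apart from other genes.

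Markers of dividing and erythroid cells stood higher in the same WD males. Of 27 S phase genes, 24 had a higher mean in WD than in CD males (median log2 difference 0.30, against -0.02 over all genes) and 11 were at an unadjusted p under 0.05. Of 15 mitosis genes all 15 were higher (median 0.27), 6 of them at an unadjusted p under 0.05. Of all genes, 6.65% were under 0.05 in that comparison. Of 13 erythroid markers, 11 were higher (median 0.27), with a summed normalized count of 333302 to 1182270 in WD males and 432576 to 1605390 in CD males. All 8 B cell precursor markers were lower (median -0.43), and the 10 hepatocyte markers were split 5 to 5. Lung markers were lower in 8 of 9 cases (median -1.65), with sums of 635 to 949 in WD males and 531 to 6412 in CD males. No gene of these lists passed the adjusted threshold. In 36 libraries the higher counts were 27 of 27 for S phase, 15 of 15 for mitosis, 13 of 13 for erythroid and 0 of 10 for hepatocyte genes (median -0.19 for hepatocytes). The part of these cells in the Uhrf1 difference was not tested. With the erythroid score of the same libraries as a covariate, the log2 difference was 0.31 (adjusted p = 0.221 by limma).

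In WD females the picture for Uhrf1 was less even. Its values were 1257, 1721, 1342, 1486 and 1788 in WD females, against 1658, 1322, 1351 and 1004 in CD females, and the groups overlapped. None of the 7 genes was under an unadjusted p of 0.05 in WD against CD females, where 6.57% of all genes were and 0% passed after adjustment. The median of the 7 log2 differences was -0.19, with 2 of 7 genes higher, while the median over all genes was -0.02. The difference of the western diet effect between females and males was also at no unadjusted p under 0.05 for any of the 7 (5.87% of all genes, 0% after adjustment). Dnmt1, the methyltransferase that copies the marks, had 1081, 1601, 1270, 1470 and 2011 in WD females, against 1293, 1171, 1166 and 868 in CD females. The library at 868, CD females replicate 5, had the highest Sftpc of the 38 (30176), the lowest Alb after the 2 libraries named above (892731) and the lowest Uhrf1 (1004). Its part in this comparison was not tested. The groups overlapped at their edges, and the log2 difference was 0.39 (unadjusted p = 0.0732 in 38 libraries, 0.0333 in 36, where 11.6% of all genes were under 0.05; adjusted p = 0.428 in 36 by limma). Beside it, 24 of 27 S phase genes (median 0.28), 13 of 15 mitosis genes (median 0.31) and 13 of 13 erythroid markers (median 0.38) had a higher mean in WD females, with summed erythroid counts of 498497 to 1250820 in WD females and 391502 to 613694 in CD females.

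At 10 mg/kg folic acid, the gene that stood out was Tet2, a dioxygenase best known as a tumour suppressor of blood cells. It had 163, 176, 214, 169 and 267 normalized counts in WDF males, against 101, 167, 138, 166 and 135 in CDF males. The highest CDF males lay just above the lowest WDF male, so the groups overlapped. The log2 difference was 0.48 ± 0.17 (SE; 95% interval 0.12 to 0.83, 1.39-fold), with an unadjusted p of 0.00991 and an adjusted p of 0.617 by limma. It was 1 of 7 genes under an unadjusted 0.05, where 6.9% of all genes were, and 0% of genes passed after adjustment. Megakaryocyte markers stood higher in the same livers: 8 of 8 had a higher mean in WDF than in CDF males (median log2 difference 0.52, 3 at an unadjusted p under 0.05), with summed normalized counts of 5150 to 7078 in WDF males and 3217 to 5970 in CDF males. Lung markers were higher in 8 of 9 cases (median 2.00), with sums of 737 to 9062 in WDF males and 759 to 915 in CDF males. Within groups, the deviations of Tet2 and of the megakaryocyte markers from their group means had a Pearson r of -0.04 and a Spearman rho of -0.04 over 38 libraries (permutation p adjusted over 154 relations 0.852 for r).

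In WDF females, compared with CDF females, 6 of the 7 genes had a higher mean (median log2 difference 0.21, against 0.01 over all genes), and 4 of 7 in 36 libraries (median 0.05). None was under an unadjusted p of 0.05, where 8.14% of all genes were and 0% passed after adjustment. In 38 libraries the largest difference of the 7 was that of Tet3, at 0.48 (95% interval -0.08 to 1.05). Tet3 had 459, 439, 452, 572 and 501 in WDF females, against 470, 415, 491 and 147 in CDF females. A single library, CDF replicate 4, set the lower end of that comparison, and it was the one with the highest total. In 36 libraries, without it, the Tet3 difference was 0.08 (unadjusted p = 0.764).

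Over both folic acid doses and both sexes, Uhrf1 was higher on the western diet at an unadjusted p only. It averaged 1600 ± 193 in the 20 western diet livers and 1416 ± 252 in the 18 control diet livers (log2 difference 0.19 ± 0.07 SE, 95% interval 0.04 to 0.34, 1.14-fold). Its unadjusted p was 0.0134 and its adjusted p 0.502 by limma, in a comparison where 7.5% of all genes were under an unadjusted 0.05 and 0.0455% passed. By stratum, the log2 difference was 0.41 in WD against CD males, 0.20 in WD against CD females and 0.17 in WDF against CDF females (0.05 in 36 libraries), but -0.02 in WDF against CDF males, where Uhrf1 averaged 1491 ± 62.1 in WDF and 1544 ± 353 in CDF males. With the erythroid score as a covariate its log2 difference over strata was 0.10 (unadjusted p = 0.190). Dnmt1 averaged 1454 ± 268 on the western and 1341 ± 366 on the control diet, a log2 difference of 0.14 (95% interval -0.07 to 0.34). In 36 libraries that of Dnmt1 was 0.22 (unadjusted p = 0.0157, adjusted p = 0.317 by limma, 11.7% of all genes under 0.05), and in 38 libraries with erythroid markers as a covariate it was -0.05. All 13 erythroid markers had a higher mean on the western diet (median 0.21, 7 at an unadjusted p under 0.05), and all 6 mesothelial markers a lower one (median -0.60, 5 at an unadjusted p under 0.05).

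For the de novo enzymes the western diet differences were close to 0. The log2 difference was 0.03 (95% interval -0.20 to 0.26) for Dnmt3a and 0.04 (-0.14 to 0.22) for Dnmt3b. Tet2 averaged 172 ± 37.7 on the western and 152 ± 23.3 on the control diet, a log2 difference of 0.16 (-0.03 to 0.34, unadjusted p = 0.0905). Tet3 had a log2 difference of 0.08 (-0.19 to 0.35) and Tet1 of -0.00 (-0.38 to 0.37). The interval of Tet1 was the widest of the 7 and that of Uhrf1 the narrowest. In sign, 6 of 7 genes were higher on the western diet, with a median of 0.08 beside -0.00 over all genes, and 4 of 7 in 36 libraries, with a median of 0.02.

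**Figure D2:**
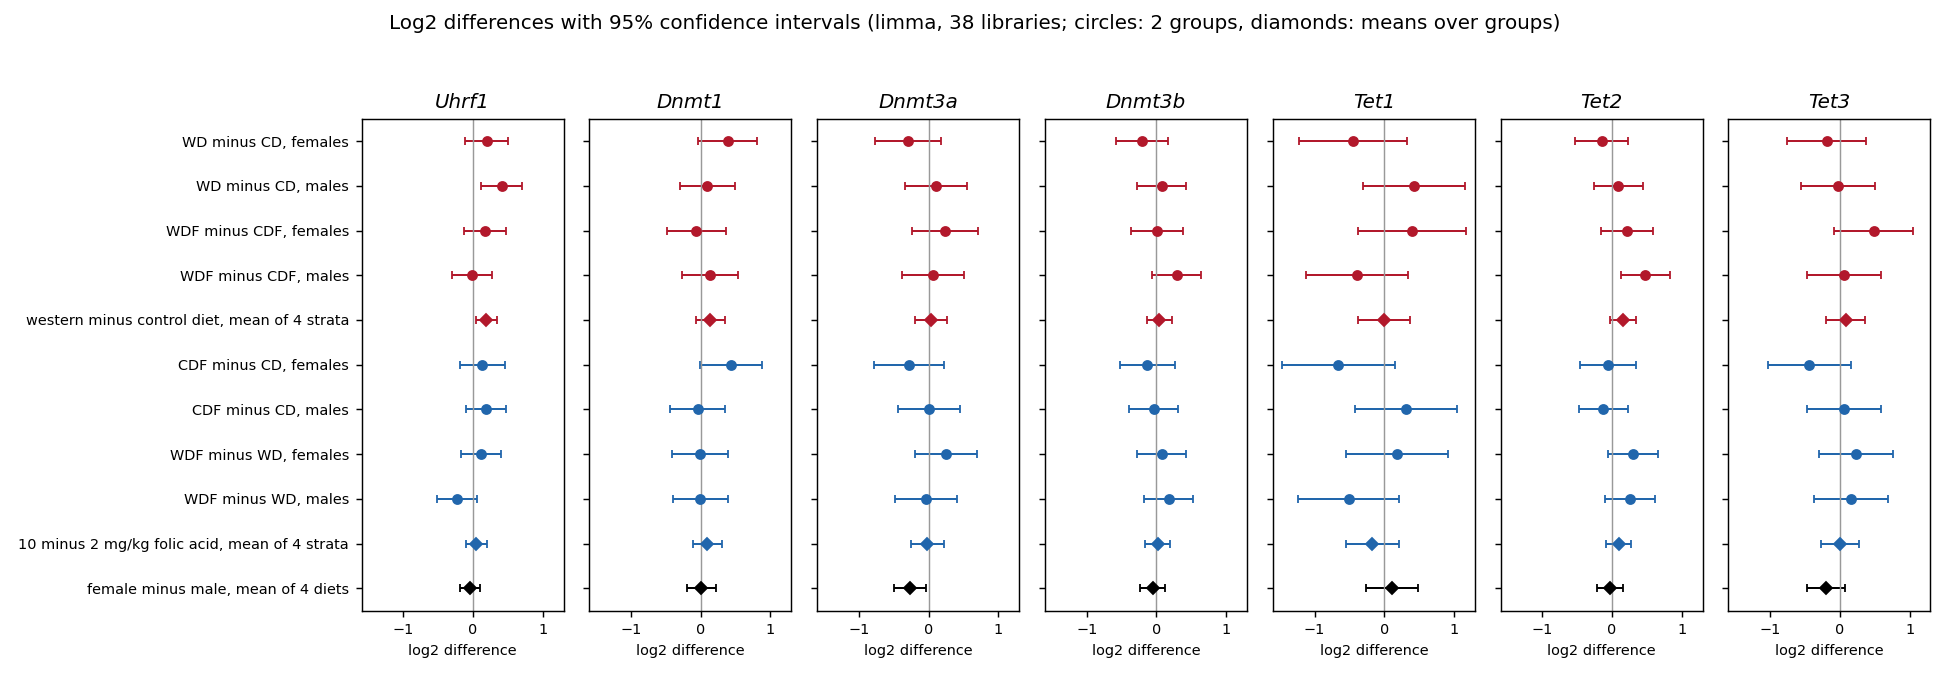
Log2 differences (horizontal axes) of the 7 genes in 11 comparisons, with 95% confidence intervals from limma on log2(value + 1) in 38 libraries; red marks are western minus control diet, blue marks 10 minus 2 mg/kg folic acid, black marks female minus male, circles compare 2 groups and diamonds average over groups. Intervals that leave out 0 are those of Uhrf1 in WD minus CD males (0.12 to 0.70) and over the strata (0.04 to 0.34), of Tet2 in WDF minus CDF males (0.12 to 0.83) and of Dnmt3a in female minus male (-0.50 to -0.04).

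The second question was the effect of folic acid at 10 against 2 mg/kg. Over both fat levels and both sexes (n = 19 libraries per dose), 0 of the 7 genes were under an unadjusted p of 0.05, where 2.33% of all genes were, and 0% passed after adjustment. Uhrf1 averaged 1534 ± 217 at 10 mg/kg and 1492 ± 263 at 2 mg/kg, a log2 difference of 0.05 (95% interval -0.10 to 0.20). Dnmt1 averaged 1431 ± 285 at 10 mg/kg and 1371 ± 355 at 2 mg/kg, a log2 difference of 0.09 (-0.11 to 0.30). Neither interval reached beyond 0.30 on the log2 scale. The log2 difference was -0.02 (-0.25 to 0.21) for Dnmt3a, 0.02 (-0.16 to 0.20) for Dnmt3b, 0.09 (-0.09 to 0.28) for Tet2 and 0.00 (-0.27 to 0.28) for Tet3. Tet1, the scarcest of the messages, had the widest interval, with a log2 difference of -0.17 (-0.55 to 0.21). An interval that includes 0 does not show that the doses act alike.

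Within each diet and sex the folic acid comparisons also gave 0 of 7 genes under an unadjusted p of 0.05. Over all genes the share under 0.05 was 7.78% in CDF against CD females, 3.49% in CDF against CD males, 1.44% in WDF against WD females and 8.81% in WDF against WD males, and it was 0% in each after adjustment. The largest of all differences between 2 groups was that of Tet1 in CDF against CD females, at -0.66 (95% interval -1.47 to 0.16). Tet1 had 25.6, 18.4, 71.3 and 9.24 in CDF females, against 28.2, 48.7, 31.5 and 49.2 in CD females. The lowest Tet1 value of the 38 libraries (9.24) and one close to the highest (71.3, against 74.2) lay together in the CDF females, and in 36 libraries, without replicate 4 of that group, the difference was -0.23. The authors' deposited tables of the same folic acid comparisons, made within each diet and sex, had 0 of the 7 genes at an adjusted p under 0.05. Of all genes given an adjusted p there, 203 of 13715 passed in WDF against WD males and 0 of 18391 in WDF against WD females. On the control diet 7 of 16012 passed in males and 4 of 18559 in females. The smallest p among the 7 in the authors' deposited tables was that of Uhrf1 in WDF against WD males, with a log2 fold change of -0.17, a p of 0.0284 and an adjusted p of 0.291. The authors' fold changes are not comparable in size with the log2 differences here. That of Dnmt1 in CDF against CD females was 0.02, against 0.44 here.

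Whether folic acid acted differently at the 2 fat levels was tested as a difference of effects. In males, Uhrf1 had 1416, 1556, 1470, 1458 and 1555 in WDF against the WD values above, and 1374, 1007, 1707, 1766 and 1867 in CDF against the CD values above. Its mean was thus lower at the high dose on the western diet (log2 difference -0.23) and higher on the control diet (0.19). The difference of these effects was -0.43 ± 0.20 (SE; 95% interval -0.83 to -0.02), with an unadjusted p of 0.0404 and an adjusted p of 0.393 by limma. It was 1 of 7 genes in a test where 12.3% of all genes were under an unadjusted 0.05 and 0% passed after adjustment. Uhrf1 passed when libraries were weighted (log2 difference -0.61, adjusted p = 0.0359), among 397 genes in all. In the plain comparison of WDF with WD males, 24 of 27 S phase genes were lower (median log2 difference -0.29), and all 15 mitosis genes (median -0.25). Of all genes, 8.81% were under an unadjusted 0.05 there. In the difference of effects in 36 libraries, 25 of 27 S phase genes (median -0.43) and 15 of 15 mitosis genes (median -0.39) were lower. Of these, 11 and 6 were at an unadjusted p under 0.05, beside 8.6% of all genes. In females 0 of 7 genes were under an unadjusted p of 0.05 in this difference of effects (12.9% of all genes, 0% after adjustment), and in the difference between the sexes of the folic acid effect on the western diet it was 0 of 7 as well (7.52% of all genes, 0% after adjustment).

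Dnmt3a was the 1 gene of the 7 with an unadjusted p under 0.05 between the sexes. Over the 4 diets it averaged 566 ± 141 in the 18 females and 676 ± 149 in the 20 males. In females the lowest, median and highest values were 301, 552 and 907, and in males 448, 663 and 998, so the sexes overlapped over most of their range. The log2 difference was -0.27 ± 0.11 (SE; 95% interval -0.50 to -0.04), with an unadjusted p of 0.0250 and an adjusted p of 0.999 by limma. It was 1 of 7 genes under an unadjusted 0.05, where 3.1% of all genes were, and 0.0585% of genes passed. In 36 libraries it was -0.17 (unadjusted p = 0.104). Tet3 was likewise lower on average in females, with 442 ± 104 in females and 503 ± 123 in males (log2 difference -0.21, 95% interval -0.48 to 0.07; -0.09 in 36 libraries). The other 5 genes differed by -0.05 to 0.11 on the log2 scale, and 2 of the 7 had a higher mean in females.

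Across all 15 comparisons (8 between 2 groups, 3 over strata and 4 differences of effects) the 7 genes gave 105 values. Of these, 0 passed after adjustment, the smallest adjusted p being 0.379, and 5 were at an unadjusted p under 0.05. In 36 libraries the counts were 0 and 6. Of all genes, 1.44 to 12.9% were under an unadjusted 0.05 per comparison in 38 libraries, and 1.09 to 14.6% in 36. Dams and litters are not given in the labels: the p-values rest on the variation among these fetal livers, and littermates among them cannot be told apart from unrelated fetuses.

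The genes that work beside the writers and erasers gave small differences as well. Of 14 tested partners of the methyltransferases, 13 had a higher mean on the western diet (median log2 difference 0.08) and 8 at 10 mg/kg folic acid (median 0.01), with none at an unadjusted p under 0.05 in 38 libraries, and 2 higher at that level in each comparison in 36. Of all genes, 7.5% were under 0.05 on the western diet and 2.33% for folic acid, and 11.7% and 3.75% in 36 libraries. On the western diet the smallest p belonged to Usp7, a deubiquitinase that binds Dnmt1 and Uhrf1 (log2 difference 0.12, unadjusted p = 0.0718), and to Uhrf2, the paralogue of Uhrf1 (0.12, 0.0830). In the folic acid comparison they belonged to the chromatin remodeller Atrx (0.16, 0.146) and to Cdca7l (-0.08, 0.274). Partners of the Tet enzymes and of base excision repair were split, with 10 higher and 8 lower on the western diet. There the repair endonuclease Apex1 was at -0.26 (802 ± 111 on the western and 982 ± 243 on the control diet, unadjusted p = 0.00651) and the glycosylase Neil3 at 0.31 (292 ± 62.1 on the western and 241 ± 52.6 on the control diet, unadjusted p = 0.0135). For folic acid the first of these partners were Dcaf1 (-0.32, unadjusted p = 0.114) and the stress gene Gadd45a (0.15, 0.157).

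Readers of methylated CpG were higher in 6 of 8 cases on the western diet, with the smallest p for Mbd2 (0.20, unadjusted p = 0.0364). With 10 mg/kg folic acid 3 of 8 were higher, with Zfhx3 at 0.11 and Mbd2 at 0.06. Genes of S-adenosylmethionine supply, the route through which folate reaches DNA methylation, were lower in 8 of 12 cases on the western diet (median -0.05) and higher in 9 of 12 at 10 mg/kg (median 0.04). Mat1a, the liver form of methionine adenosyltransferase, averaged 7929 ± 2842 on the western and 10164 ± 2440 on the control diet (log2 difference -0.41, unadjusted p = 0.00633, adjusted p = 0.382 by limma), and methionine synthase Mtr was at 0.19 (unadjusted p = 0.0582). For folic acid the leading pair was Mtrr, which reactivates methionine synthase (-0.13, 0.282), and Mat2b (0.06, 0.311). For 2-oxoglutarate supply 5 of 8 genes were higher on the western diet. Ogdh, a subunit of the dehydrogenase that consumes 2-oxoglutarate, was at 0.18 (unadjusted p = 0.00509) and Idh1, which makes it in the cytosol, at -0.24 (0.0152). In the folic acid comparison Idh1 was at -0.13 and Idh3b at 0.08.

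Genes of cell division mostly had a higher mean on the western diet, but not in each stratum: 26 of 27 S phase genes (median 0.12, 7 at an unadjusted p under 0.05) and 15 of 15 mitosis genes (median 0.16, 6 at an unadjusted p under 0.05) had a higher mean over strata. At 10 mg/kg in males the direction was the other one, with 18 of 27 S phase genes (median -0.07) and 11 of 15 mitosis genes (median -0.08) lower in WDF than in CDF males, 1 and 0 of them at an unadjusted p under 0.05 (3 and 4 in 36 libraries). The loading factor Cdc6 was at 0.25 (654 ± 83.9 on the western and 556 ± 99.0 on the control diet, unadjusted p = 0.00325) and the helicase subunit Mcm2 at 0.19 (0.0163). The topoisomerase Top2a was at 0.26 (4367 ± 755 on the western and 3661 ± 572 on the control diet, 0.00317) and the proliferation marker Mki67 at 0.33 (0.0152). At 10 mg/kg 15 of 27 S phase genes were higher (median 0.01), with Mcm5 at -0.08 and Gins1 at 0.10, and 7 of 15 mitosis genes, with Mki67 at 0.12 and Bub1b at -0.08. None of the genes named from these lists passed after adjustment in either comparison by limma (adjusted p from 0.319 upward).

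The spread within groups was shared between genes. Deviations of each library from its group mean on the log2 scale were correlated over 38 libraries, for all 21 pairs of the 7 genes, with permutation p-values (100000 permutations, two-sided) adjusted over the 21. The smallest p that these permutations can give is 1e-05, before adjustment, and it stands behind the smallest adjusted values here and below. All genes of a library share its RNA, its scaling and its depth. Deviations were moved freely over the 38 libraries although 8 group means had been taken away, so these p-values, here and below, are somewhat too small. Values near 0.05 are the least secure. For 6 pairs the adjusted p of Pearson's r was under 0.05, and all 6 correlations were positive. The closest pair was a writer and an eraser, Dnmt3a and Tet3, with r 0.74 and Spearman rho 0.78 (adjusted permutation p 0.00021 for each), r 0.74 in females and 0.75 in males. Next came Tet1 and Tet3 (r 0.64, rho 0.48, adjusted p 0.00021 and 0.0124), Dnmt3a and Dnmt3b (0.60, 0.55; 0.00035 and 0.00388) and Dnmt3a and Tet1 (0.51, 0.43; 0.00677 and 0.0256). Dnmt3b with Tet3 had r 0.43 and rho 0.49 (adjusted p 0.0319 and 0.0124), and Dnmt1 with Uhrf1 had r 0.42 and rho 0.47 (0.0326 and 0.0124). Without the 2 libraries farthest from the median, r was 0.72, 0.54, 0.55, 0.49, 0.45 and 0.44 for the 6 pairs in this order. Each plain r was also ranked among the correlations of the pair's first gene with all tested genes. The percentiles were 99.7, 95.6, 94.6, 88.3, 90.1 and 76.1 in the same order. By Pearson's r, Dnmt3a was in 3 of the 6 pairs and Tet3 in 3, while Dnmt3b with Tet1 had r 0.14 (adjusted p 0.521) and Tet2 was in none. By Spearman's rho, Dnmt3a with Tet2 (rho 0.42, adjusted permutation p 0.0273) and Dnmt1 with Tet1 (-0.40, 0.0338) were under 0.05 as well. Tet2 had r 0.69 with Dnmt3a and 0.63 with Tet3 in males, against -0.03 and -3.17e-05 in females.

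**Figure D3:**
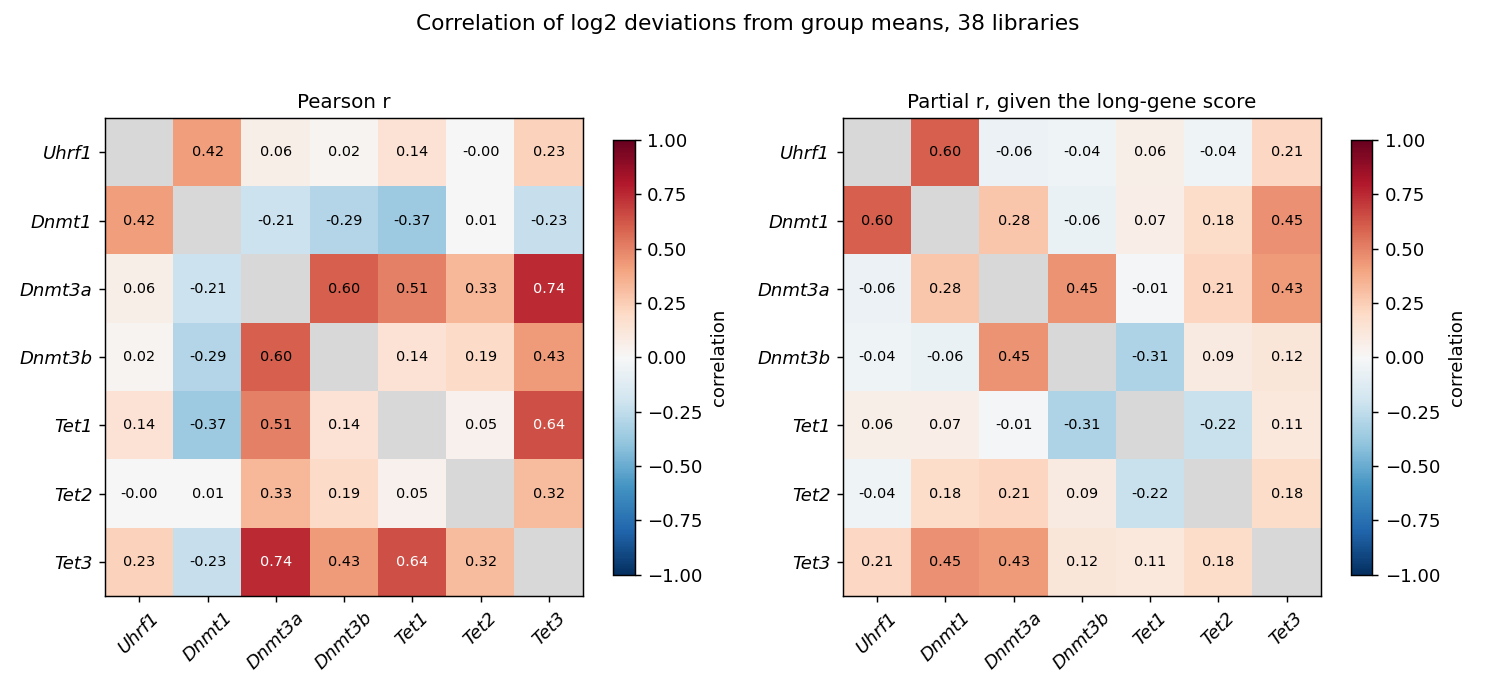
Pearson correlation between the log2 deviations of the 7 genes from their group means over 38 libraries (left) and the partial correlation given the long-gene score (right); colours run between -1 and 1. Dnmt3a with Tet3 is the strongest pair on the left (0.74) and Dnmt1 with Uhrf1 on the right (0.60).

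The deviations were also set beside the length of genes. A long-gene score was computed for each library, as the mean deviation of the 3726 tested genes with at least 6379 nt of merged exon minus that of the 3726 genes with at most 2395 nt. It ran from -0.88 (CDF females replicate 4) to 0.45. Tet3 followed it with r 0.82 (rho 0.73), Tet1 with 0.74 (0.70), Dnmt3a with 0.69 (0.69) and Dnmt3b with 0.45 (0.41). The adjusted permutation p, over 154 relations of the 7 genes with lists and library measures, was 0.00011 for each r but that of Dnmt3b (0.0164). Uhrf1 (r 0.14) and Tet2 (0.26) did not follow it at an adjusted p under 0.05, and Dnmt1 ran against it (r -0.55, adjusted p 0.00226). Merged exons are 15457 to 16870 nt long in Dnmt3a and the Tet genes, 7377 nt in Dnmt1, 5106 nt in Dnmt3b and 4259 nt in Uhrf1. Given the score, a measure added after the data were seen, the correlation was 0.43 for Dnmt3a with Tet3, 0.11 for Tet1 with Tet3 and -0.01 for Dnmt3a with Tet1. That of Dnmt3a with Dnmt3b was 0.45, and that of Dnmt1 with Uhrf1 was 0.60, above its plain value. In 36 libraries Dnmt1 with Uhrf1 had r 0.62 and Dnmt3a with Tet3 0.70.

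With the log2 library total, Tet3 had r -0.76, Tet1 -0.74, Dnmt3a -0.57 and Dnmt3b -0.39, and Dnmt1 had 0.59, all at an adjusted permutation p under 0.05. Tet2 (r -0.11, adjusted p 0.626) and Uhrf1 (-0.19, 0.340) did not follow it at that threshold. Endothelial markers also followed Tet1 (r 0.69, rho 0.60) and Tet3 (0.69, 0.57), and given the long-gene score these correlations were 0.27 and 0.11. Markers of neutrophils and their progenitors ran against Tet1 (r -0.70, rho -0.67), with -0.35 given the score. The adjusted permutation p of r was 0.00011 for these 3. The parts of cell makeup, depth and RNA length in these shared deviations were not tested apart.

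Uhrf1 followed the genes of cell division. Its deviations correlated with the mean deviation of the 15 mitosis genes with r 0.69 (rho 0.71; adjusted permutation p 0.00011 and 0.00014), 0.90 in females and 0.43 in males. With the 27 S phase genes r was 0.56 (rho 0.57, adjusted p 0.00117 and 0.00149), and 0.78 given the long-gene score. Without the 2 farthest libraries these were 0.65 and 0.55. Erythroid markers gave r 0.50 (rho 0.58, adjusted p 0.00644 and 0.000888). Mesothelial markers gave r -0.44 (rho -0.48, adjusted p 0.0184 and 0.0106), with r -0.87 in females and 0.01 in males.

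Dnmt1 followed its partners, S phase and the maturing blood lineages. Its correlation was 0.84 with the mean of the 14 partners of the methyltransferases (rho 0.83, adjusted permutation p 0.00011 and 0.00014), 0.81 in females and 0.88 in males. It was 0.58 with S phase genes (rho 0.58, 0.75 in females, 0.44 in males, 0.39 given the long-gene score), which share Pcna with the partner list, and 0.20 with mitosis genes (rho 0.24, adjusted p 0.319). Dnmt1 was higher where erythroid (r 0.68, rho 0.67), B cell precursor (0.68, 0.71) and macrophage markers (0.61, 0.63) were. It was lower where hepatocyte markers (r -0.72, rho -0.67) and 2-oxoglutarate genes (-0.77, -0.69) were higher. Apart from mitosis genes, each had an adjusted p of at most 0.00066 for r, and without the 2 farthest libraries the 7 correlations ran from 0.55 to 0.76 in size. Markers of stem and progenitor cells ran the other way (r -0.57, rho -0.59, adjusted p 0.00115). Dnmt3a had r -0.57 with S phase genes and -0.48 with erythroid markers, and -0.31 and -0.17 given the long-gene score. Its direct correlation with Dnmt1 was -0.21 (adjusted p 0.322), -0.63 in females and 0.21 in males. In all, 61 of the 154 relations had an adjusted p of r under 0.05, a count that may be too high since the permutation p-values are somewhat too small.

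**Figure D4:**
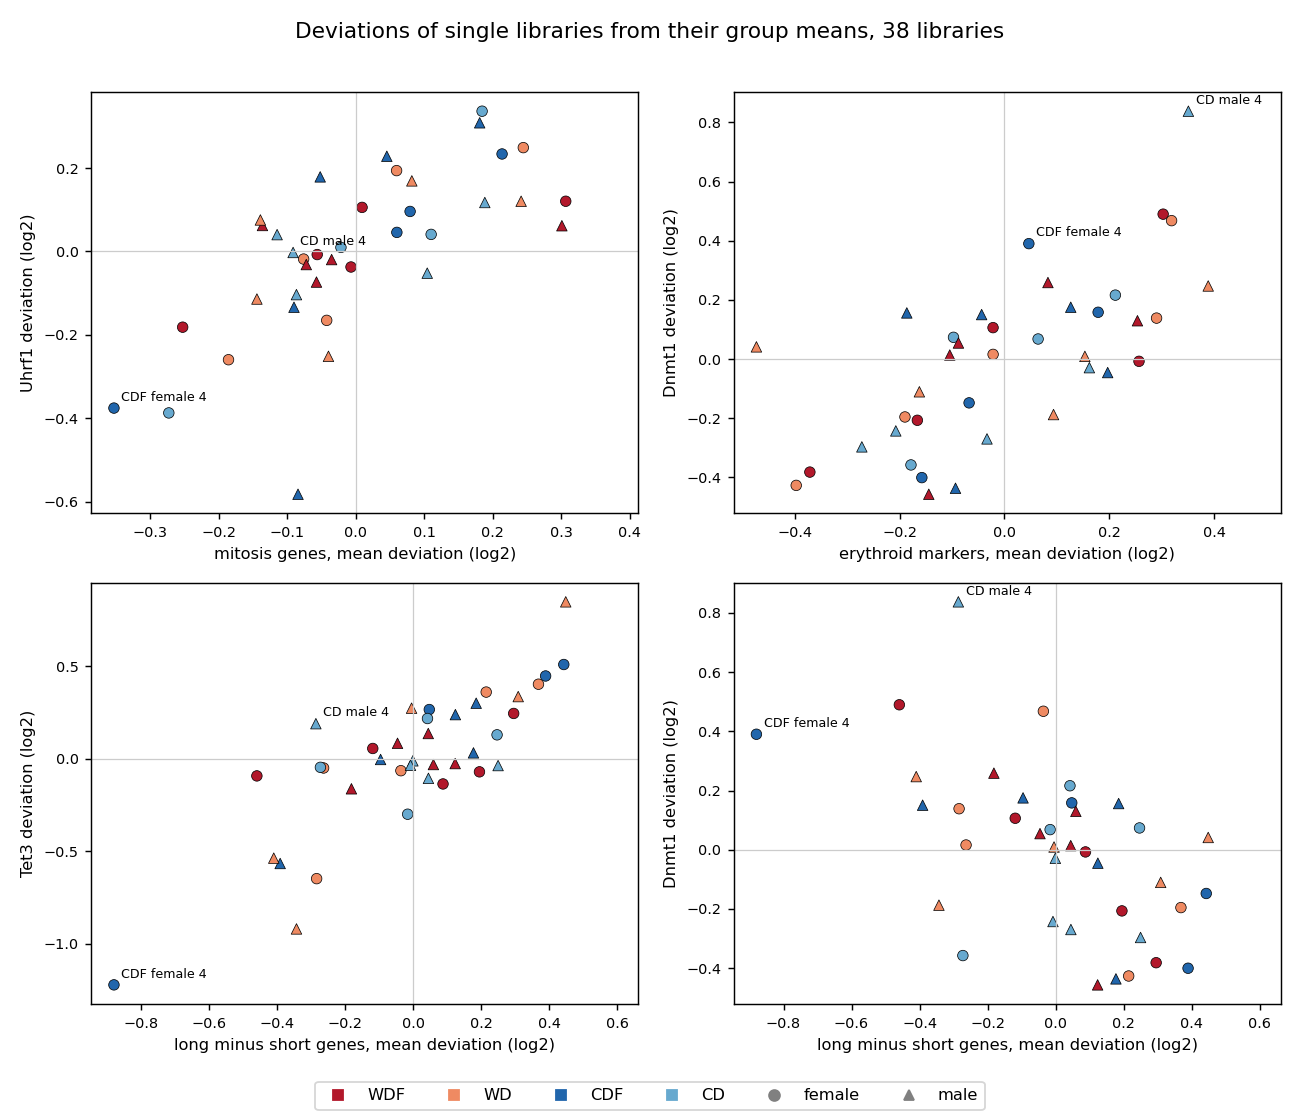
Deviations of single libraries from their group means (log2, both axes) for Uhrf1 against mitosis genes, Dnmt1 against erythroid markers, and Tet3 and Dnmt1 against the long-gene score; colours are diets, circles females and triangles males, and the 2 libraries with the lowest Alb of the 38 are named. Tet3 rises with the long-gene score (r 0.82) and Dnmt1 falls (r -0.55), with CDF females replicate 4 at the far left (-0.88).

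The promoters of the maintenance pair are shown because these were the 2 of the 7 genes with a positive correlation with S phase genes at an adjusted p under 0.05. Many S phase genes are known targets of E2F factors. Windows of 300 bases, 250 before and 50 after a start site, come from RefSeq on GRCm38.p6, and the 7 genes have 12 such windows. They were searched on both strands for an E2F-type motif in its 4 forms TTTCCCGC, TTTCGCGC, TTTGCCGC and TTTGGCGC, which do not overlap each other here. Only the 2 windows printed here held a match, out of the 12. In each the match is in capitals, and the strand is that of the gene.

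Dnmt1, chr9:20952574-20952873, minus strand: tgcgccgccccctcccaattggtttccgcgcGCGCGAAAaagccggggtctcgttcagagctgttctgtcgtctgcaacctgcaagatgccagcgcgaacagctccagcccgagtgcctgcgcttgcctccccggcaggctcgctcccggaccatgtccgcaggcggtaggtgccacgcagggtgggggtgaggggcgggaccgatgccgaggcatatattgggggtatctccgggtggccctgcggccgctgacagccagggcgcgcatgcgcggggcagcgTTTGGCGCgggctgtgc
Uhrf1, chr17:56304063-56304362, plus strand: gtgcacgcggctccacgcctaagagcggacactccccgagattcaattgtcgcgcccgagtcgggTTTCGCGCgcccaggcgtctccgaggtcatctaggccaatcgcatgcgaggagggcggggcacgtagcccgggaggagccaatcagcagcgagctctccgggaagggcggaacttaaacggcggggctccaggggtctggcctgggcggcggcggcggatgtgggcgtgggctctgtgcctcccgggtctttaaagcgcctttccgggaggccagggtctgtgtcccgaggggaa

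In the Dnmt1 window the first match, GCGCGAAA (TTTCGCGC on the other strand), begins 219 bases before the start site, and the second, TTTGGCGC, begins at base 33 after it. In the Uhrf1 window TTTCGCGC begins 185 bases before the start site. Of all 32851 windows 2.26% held a match, and of 27025 genes 2.61% had 1 in any window. Among the 22 S phase genes with a window, 10 did. Both printed windows hold 33 CpG, against a median of 7 over all windows. The search says only that these letters are present, and counts per gene cannot tell which start site was used. Dnmt3a, Dnmt3b and the Tet genes had no match in the windows searched.

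The genes whose deviations were most like those of each of the 7 were named by the highest Pearson r among all tested genes, over 38 libraries, as a description. For Dnmt1 they were the replicative helicase subunit Mcm7 (r 0.91), the corepressor Ncor1 (0.90) and Tcof1 (0.90). For Uhrf1 they were Mybl2, a transcription factor of the cell cycle (0.86), Bard1, the partner of Brca1 (0.83), and Ppp1r9b (0.77). Both lists thus hold a gene of replication or of the cell cycle. For Dnmt3a they were Tbc1d5 (0.82), the kinase Gsk3b (0.82) and Dgkd (0.80), and for Dnmt3b Zfp456 (0.73), the pyruvate carboxylase Pcx (0.73) and Lratd2 (0.71). For Tet1 they were the vascular receptor Nrp1 (0.82), Extl3 (0.79) and Msn (0.79), for Tet2 Zfhx2 (0.64), Ip6k1 (0.64) and Pknox1 (0.61), and for Tet3 the histone demethylase Phf2 (0.93), the linker protein Plec (0.91) and Lpp (0.91). Tet2 was the gene with the weakest nearest neighbours. With Spearman's rho in place of r, 2 of the 3 stayed for Dnmt1, Dnmt3b, Tet1 and Tet2, 1 for Dnmt3a and Uhrf1, and 0 for Tet3.

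The 2 libraries left out carried another balance of these genes. In CDF females replicate 5 and CD females replicate 4, Tet1 had 365 and 220 normalized counts, and no other library had more than 74.2. Tet3 had 1148 and 1426, Dnmt3a 1450 and 1609, and Tet2 334 and 337, each above all 38 others. Uhrf1, at 838 and 420, was below all 38 others. Dnmt1 had 902 and 815, against a lowest value of 868 in the 38, and Dnmt3b 92.1 and 98.9, against 95.9. The Tet genes and Dnmt3a were thus high, and Uhrf1 low, in the 2 libraries rich in Sftpc and poor in Alb.

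**Figure D5:**
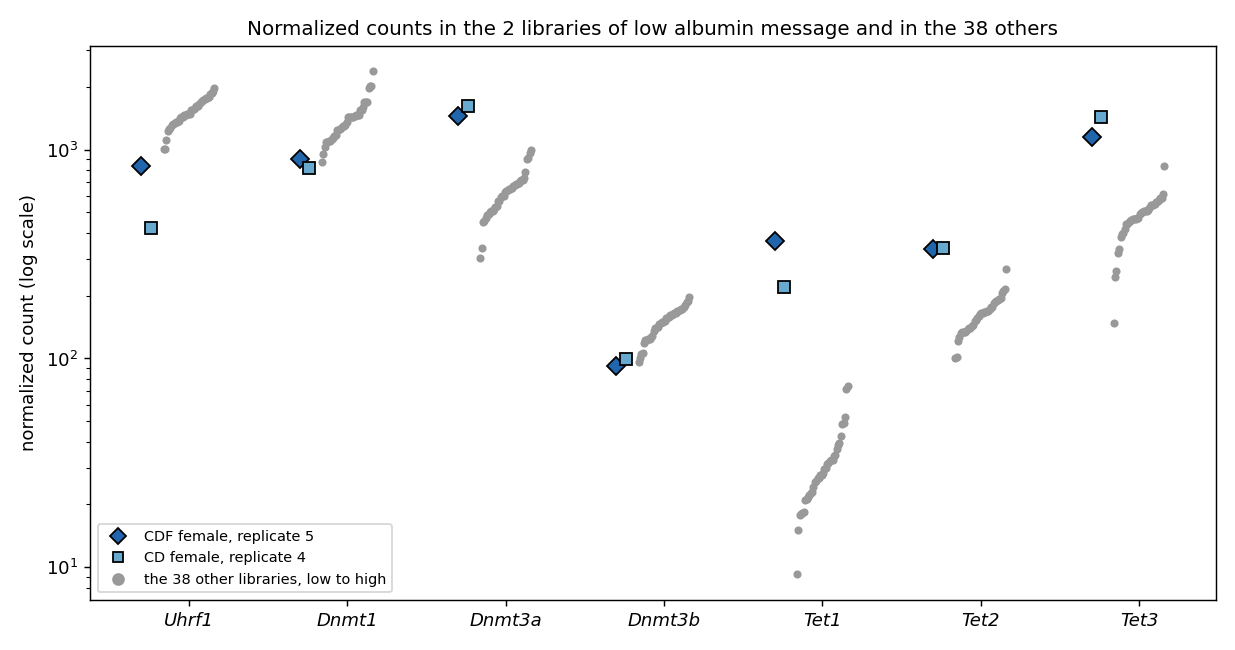
Normalized counts (log scale) of the 7 genes in CDF females replicate 5 and CD females replicate 4, the 2 libraries of low albumin message, beside the 38 others sorted from low to high. Tet1 stands at 365 and 220, against at most 74.2 elsewhere, and Uhrf1 at 838 and 420, against at least 1004.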

How the data were processed

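RNA of 40 fetal livers, 1 library each, was sequenced as directional poly(A) libraries with paired reads of 43 nt, per the labels' protocols. Trimmomatic 0.39, STAR 2.7.3a, Salmon 1.3.0, DESeq2 1.24 and the build mm10 are named in the submitters' processing notes, and the use of strand in counting is not given in the sources used here. In the submission the authors deposited a table of normalized counts per gene, here treated as a signal: median-ratio factors recomputed from it were 1, and whole reads could not be recovered (28.2 to 57.8% of values whole, tolerance 0.1 of a step), so a planned count test was not used. Depth in reads is thus unknown, and precision rests on the spread between libraries. The 4 deposited tables of the authors' folic acid comparisons hold a log2 fold change, p-values and a mean count as a signal.

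Symbols are those of the deposited table, and coordinates and exon lengths come from GENCODE on mm10. The header of 1 CDF column has no letter for the sex and was matched to the female title that no other column takes. The fit used limma 3.58.1 (R 4.3.3; trend, robust moderation) on log2(value + 1), with 1 mean per group over 38 libraries, after a filter of 10 in at least 5 libraries, and adjusted by Benjamini-Hochberg over 15377 genes at 0.05. No pair of libraries correlated above 0.982, and all were kept as separate samples. The fit was tested on simulated data. The members and the lists were chosen with earlier results of these data known. Named were all 7 genes, the 3 genes most like each, and of each list the 2 smallest p in the western diet and folic acid comparisons over strata; 1 gene that this rule names is not reported here. A log2 difference on this scale understates changes of scarce genes such as Tet1.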

Additional observations from a re-analysis of the deposited data

Results flagged for a closer look

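Dnmt1 in CD males replicate 4 stood far from its group, at 2375 normalized counts, with the next library of the group at 1302 and a gap of 0.829 of the group's range. It was 1 such gap among 56 pairs of gene and group, where chance gives about 1 in 20. That library had the lowest Alb of the 38 (641907) and a total of 20.8 M. Its part in the Dnmt1 differences was tested by leaving it out: the western diet difference over strata was 0.19 without it and 0.14 with it. In 36 libraries, without it and CDF females replicate 4, the Dnmt1 difference was 0.30 in WD against CD males, against 0.10 in 38, and 0.16 in CDF against CD males, against -0.05.

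The 2 libraries left out of the comparisons held values above all 38 others for 4 genes. CDF females replicate 5 had 1450 for Dnmt3a, 365 for Tet1, 334 for Tet2 and 1148 for Tet3. CD females replicate 4 had 1609 for Dnmt3a, 220 for Tet1, 337 for Tet2 and 1426 for Tet3. The highest values among the 38 were 998, 74.2, 267 and 835 for these genes. Alb was 5278 and 7708 in the 2 libraries, and Sftpc 67014 and 101239.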

How the results depend on the processing

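None of the 7 genes passed in any alternative but library weights, by which Uhrf1 was the 1 gene of the 7 called in WD against CD males (0.50) and 1 in the difference of folic acid effects between the fat levels in males (-0.61). Over the alternatives, the log2 difference of Uhrf1 ran from 0.31 to 0.50 in WD against CD males and from 0.10 to 0.31 over strata, that of Tet2 in WDF against CDF males from 0.36 to 0.54, and that of Dnmt3a between females and males from -0.32 to -0.12. Of 24 differences followed, 9 kept their sign in every alternative and 15 did not, none of them called and the largest in size that of Tet1 at 10 mg/kg (-0.17), and the cause was not tested. With all 40 libraries Dnmt3a (-0.12) and Tet3 (-0.086) in the western diet comparison over strata and Dnmt1 (-0.051) and Tet2 (0.077) between the sexes changed sign, and group levels moved to 711 (CDF females) and 814 (CD females) for Dnmt3a, 97.8 and 75.6 for Tet1, 189 and 195 for Tet2, and 664 for Tet3 in CD females. Without the libraries with Sftpc above 1000, signs changed for Dnmt3a (-0.070) and Tet3 (-0.032) on the western diet, Dnmt1 (-0.036), Dnmt3a (0.055) and Tet1 (0.050) at 10 mg/kg, and Dnmt1 (-0.031), Dnmt3b (0.023) and Uhrf1 (0.032) between the sexes. With limma-voom they changed for Tet1 (0.032) on the western diet, Dnmt3b (-0.032) and Tet3 (-0.051) at 10 mg/kg, and Dnmt1 (-0.035) between the sexes. With library weights they changed for Dnmt3a (-0.033), Dnmt3b (-0.010) and Tet3 (-0.011) on the western diet, Dnmt3a (0.11) and Tet1 (0.069) at 10 mg/kg, and Dnmt1 (-0.0064) between the sexes. With the erythroid covariate they changed for Dnmt1 (-0.050) and Tet1 (0.22) on the western diet and Dnmt3a (0.00771) at 10 mg/kg, and with the long-gene covariate, chosen after the data were seen, for Dnmt3a (0.028) at 10 mg/kg and Dnmt1 (-0.047) between the sexes. Upper-quartile scaling gave -0.0015 for Tet3 at 10 mg/kg, and a pseudocount of 0.5 gave 7.66e-05 for Tet1 on the western diet. Leaving out 1 library at a time changed the sign of Dnmt1 (-0.024 to 0.060) and Tet1 (-0.016 to 0.22) between the sexes, of Dnmt3a (-0.059 to 0.045), Dnmt3b (-0.012 to 0.050) and Tet3 (-0.054 to 0.10) at 10 mg/kg, and of Dnmt3a (-0.031 to 0.072), Tet1 (-0.11 to 0.13) and Tet3 (-0.021 to 0.14) on the western diet.

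Libraries that share a replicate number were not paired by the labels, and their deviations were not either (median r -0.0094 over 54 pairs, of which 20 were over 0.1). A replicate block fitted within each sex gave 0.016 for Tet1 on the western diet, and changed no call. Depth limits Tet1 most, at a median of 27.9 normalized counts.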
